A study of Mus musculus with 16 samples.

Results

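The genes examined here were 6 NADPH oxidase genes, Nox1, Cybb, Cyba, Ncf1, Ncf4 and Rac2, among 22287 genes in the deposited expression table. The members were chosen by their CPM (read counts scaled to sequencing depth) over the 8 groups of the study and found by gene symbol, and all 6 were in the table and passed the expression filter of the fit. Because those values chose the genes, their levels and fold changes are given as a description without a test. Tests are given for a list of 46 other genes of the oxidase pathway, of which 39 passed the expression filter.

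NADPH oxidases pass electrons from NADPH across a membrane to oxygen and so make superoxide. In phagocytes the catalytic subunit is NOX2, encoded by Cybb, which sits in the membrane with p22phox, encoded by Cyba. Cytosolic subunits, among them p47phox (Ncf1) and p40phox (Ncf4), and the small GTPase RAC join them when the cell is stimulated, and this respiratory burst helps kill ingested microbes. Nox1 encodes a homologous catalytic subunit that also pairs with p22phox and is best known from colon epithelium and vascular smooth muscle.

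RNA-seq had been done on bone marrow derived macrophages (BMDMs) from male C57BL/6J mice aged 8 weeks. Marrow was cultured for 7 days with GM-CSF, which gives GM-BMDMs, or with M-CSF, which gives M-BMDMs, on tissue culture treated (TC) or untreated (noTC) dishes, and then received vehicle (steady state) or lipopolysaccharide (LPS), a bacterial cell wall component, for 3 h. The 16 libraries form 8 groups of 2, named by growth factor and dish (GM-TC, for example), each at steady state or with LPS. The labels name no engineered allele. The labels number 2 replicates per group and do not say whether these came from separate mice or cultures. The study calls them biological replicates without saying more, so the p-values below measure the spread between such libraries, part of which may be technical.

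Total counts lay between 17527802 and 31458363 per library, and 3 counts, taken as the limit that a count of 0 allows, corresponded to 0.0954 to 0.171 CPM. Intervals of this kind cover counting error only. The 8 macrophage markers were present in every group, with Lyz2 and Csf1r between 13278 and 39700 CPM and between 595 and 3974 CPM. The limit above and all marker values, here and below, are CPM by library size alone. Other CPM were scaled by TMM, which assumes that most genes do not change, unless stated. The median gene by library size alone was lower upon LPS by between -0.53 and -0.83 on the log2 scale and lower in GM than in M at steady state by -0.29. In the steady state noTC libraries, genes near 0 in the steady state TC libraries and abundant elsewhere held a median of 0.675% (GM, 15 genes) and 0.600% (M, 19 genes) of their mean in the other libraries. In bulk RNA, fewer cells of a type and less RNA per cell cannot be told apart.

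The sequence before the start of 3 members is shown, because Nox1 and Cybb had the largest differences among the members and Ncf1 shared a motif with Cybb. The windows are the 250 bases before the RefSeq start on build GRCm38.p6, printed 5′ to 3′ on the minus strand that carries each gene, at chrX:134111855-134112104 for Nox1, chrX:9469325-9469574 for Cybb and chr5:134229626-134229875 for Ncf1. RefSeq entries were matched for 4 of the 6 members, the fourth being Cyba, whose window held none of the motifs. Capitals mark matches, on either strand, to GAGGAA (the PU.1 and ETS core), to TGANTCA (which takes in the AP-1 site) and to the interferon response element core (GAAA, a pair of any bases and GAAA).
Nox1: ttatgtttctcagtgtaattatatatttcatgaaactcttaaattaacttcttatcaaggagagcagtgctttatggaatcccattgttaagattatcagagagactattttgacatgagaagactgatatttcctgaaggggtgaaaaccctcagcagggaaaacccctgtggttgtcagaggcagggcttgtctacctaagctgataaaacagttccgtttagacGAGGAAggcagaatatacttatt
Cybb: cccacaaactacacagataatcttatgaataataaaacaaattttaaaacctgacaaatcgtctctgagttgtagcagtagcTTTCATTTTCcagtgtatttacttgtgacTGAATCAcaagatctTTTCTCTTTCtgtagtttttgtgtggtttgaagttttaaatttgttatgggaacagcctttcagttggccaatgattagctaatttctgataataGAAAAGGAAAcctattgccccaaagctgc
Ncf1: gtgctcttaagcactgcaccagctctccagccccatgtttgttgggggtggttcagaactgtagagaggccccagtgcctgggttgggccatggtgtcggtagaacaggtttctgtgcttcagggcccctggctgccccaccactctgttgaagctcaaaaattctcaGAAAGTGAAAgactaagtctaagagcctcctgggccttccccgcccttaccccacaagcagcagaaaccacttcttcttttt
The Nox1 window held 1 GAGGAA match beginning 23 bases before the start. The Cybb window held 3 matches to the interferon response element core, beginning 168, 124 and 29 bases before the start, and 1 TGANTCA match at 139 bases. The Ncf1 window held 1 interferon response element core at 82 bases. Of 32851 RefSeq promoter windows of this length, 23.3% held GAGGAA, 6.75% held TGANTCA and 2.98% held the interferon response element core. No match overlapped another in these 3 windows. A match of letters is a description and not a bound site.

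Nox1 (ENSMUSG00000031257, chrX:134086421-134221956, minus strand, build GRCm38) was at its highest in M-BMDMs upon LPS challenge and was not detected in GM-TC cells at steady state. In M-TC cells Nox1 was at 1.71 and 0.823 CPM at steady state and at 36.4 and 40.7 CPM upon LPS. In M-noTC cells it was at 4.14 and 5.06 CPM at steady state and at 60.3 and 64.8 CPM upon LPS. All 4 M libraries with LPS were therefore above all 12 other libraries. The difference upon LPS was 4.93 ± 0.18 on the log2 scale (SE) in M-TC, a fitted fold of 30.5, and 3.75 ± 0.13 in M-noTC, a fitted fold of 13.4. Both were smaller with library size alone, at 4.11 and 3.02.

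In GM-BMDMs Nox1 stayed low throughout. The GM-TC libraries at steady state held 0 counts, which allows up to 0.171 and 0.134 CPM by library size, and the GM-noTC libraries held 7.18 and 5.18 counts, or 0.285 and 0.185 CPM. Upon LPS it was at 0.724 and 0.975 CPM in GM-TC and at 0.995 and 1.55 CPM in GM-noTC, without overlap with steady state. These levels rest on 14.48 to 34.45 counts per library. Against a floor of 3 counts per library, averaging 0.136 CPM, Nox1 was at least 6.24-fold higher with LPS than without in GM-TC. In GM-noTC the difference was 2.43 ± 0.47 (log2 ± SE), and it was 3.39 after 0.675% of the other libraries' mean was subtracted from the steady state libraries. That subtraction left steady state counts near the floor of 3 per library, so the value of 3.39 is uncertain.

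The growth factor and the dish both went with the Nox1 level. Upon LPS, Nox1 was lower in GM than in M by -5.48 ± 0.20 on TC and by -5.61 ± 0.18 on noTC dishes (log2 ± SE), with fitted folds of 44.7 and 48.8 in favour of M. At steady state it was at least 9.32-fold higher in M-TC than in GM-TC (at least 6.05-fold without M-TC replicate 1). The noTC difference was -4.29 ± 0.33, and it was -5.24 after the same subtraction of a share of the other libraries. This second value is also uncertain, since the GM-noTC counts were then near the floor. In M-BMDMs Nox1 was higher on noTC than on TC dishes without overlap, by 1.89 ± 0.23 at steady state and by 0.70 ± 0.11 upon LPS. The log2 difference upon LPS in M-noTC was smaller than in M-TC by -1.19 ± 0.26, and this value was -1.78 without M-TC replicate 1 and -0.73 without M-TC replicate 2. The steady state dish difference in M likewise moved to 2.49 and 1.44, and the LPS difference in M-TC to 5.54 and 4.49, when M-TC replicate 1 or 2 was left out. In GM the dish difference upon LPS was 0.58 ± 0.37, ranging from 0.22 to 0.86 with any 1 library left out. Ordered by mean, the groups ran GM-TC, GM-noTC, GM-TC-LPS, M-TC, GM-noTC-LPS, M-noTC, M-TC-LPS and M-noTC-LPS, and the values of M-TC overlapped those of both neighbours.

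**Figure D1:**
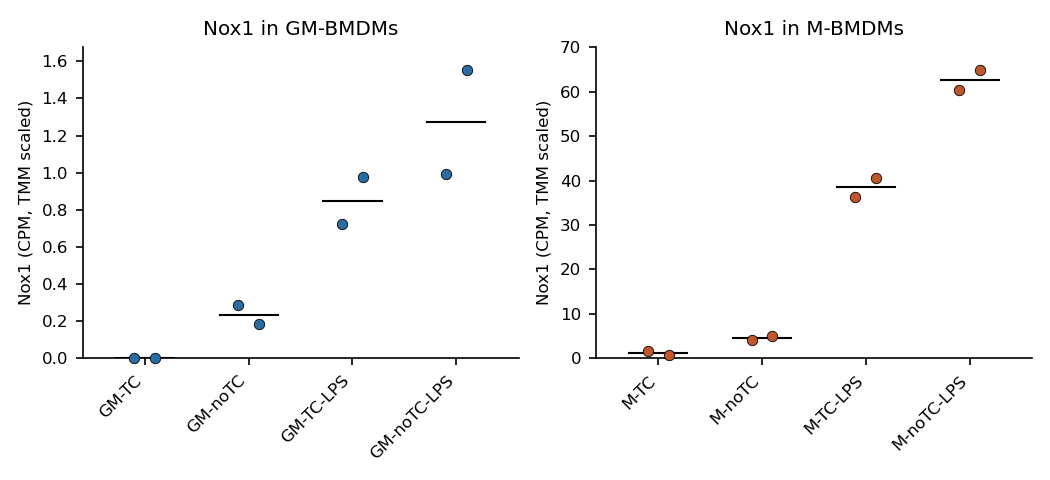
Nox1 in each library as TMM scaled CPM (vertical axes, which differ between the panels), with points for the 2 libraries of a group and a line for their mean. The GM panel ends below 2 CPM, whereas the M libraries with LPS lie between 36.4 and 64.8 CPM.

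Nox1 overlaps a neighbour at its 3′ end. Cstf2, on the opposite strand, encodes a subunit of the cleavage stimulation factor for mRNA 3′ ends and shares 399 exon bases with Nox1 at chrX:134086421-134086819 (GENCODE annotation of GRCm38). The library kit named in the methods does not mark strand, so reads from these bases cannot be told apart. Counts that are not whole show where the counting divided reads between genes. In 14 of the 14 libraries where the Nox1 count was not whole, Nox1 and Cstf2 together were whole within 0.011 counts.

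Cstf2 itself was at 34.4 and 33.6 CPM in M-TC and at 86.0 and 99.5 CPM in M-TC-LPS, and at 52.0 and 53.6 CPM in M-noTC and at 101 and 110 CPM in M-noTC-LPS. In the 4 GM groups it lay between 19.5 and 24.4 CPM. Cstf2 was therefore higher in the same M groups as Nox1. The Nox1 share of the counts of both genes was not constant. It was 0% in GM-TC, where Cstf2 had 387 and 537 counts, 3.61% ± 1.69 in M-TC, 29.4% ± 0.488 in M-TC-LPS, 8.02% ± 0.874 in M-noTC and 37.2% ± 0.106 in M-noTC-LPS (SD, n = 2). Counted as 1 locus, both genes together differed upon LPS by 1.90 in M-TC, 1.55 in M-noTC and -0.01 in GM-noTC on the log2 scale. The Nox1 share was 1.04% in GM-noTC and 5.41% in GM-noTC-LPS. There the sum was nearly all Cstf2, so it could not show the Nox1 difference either way. How many of the shared reads came from Nox1 was not tested.

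**Figure D2:**
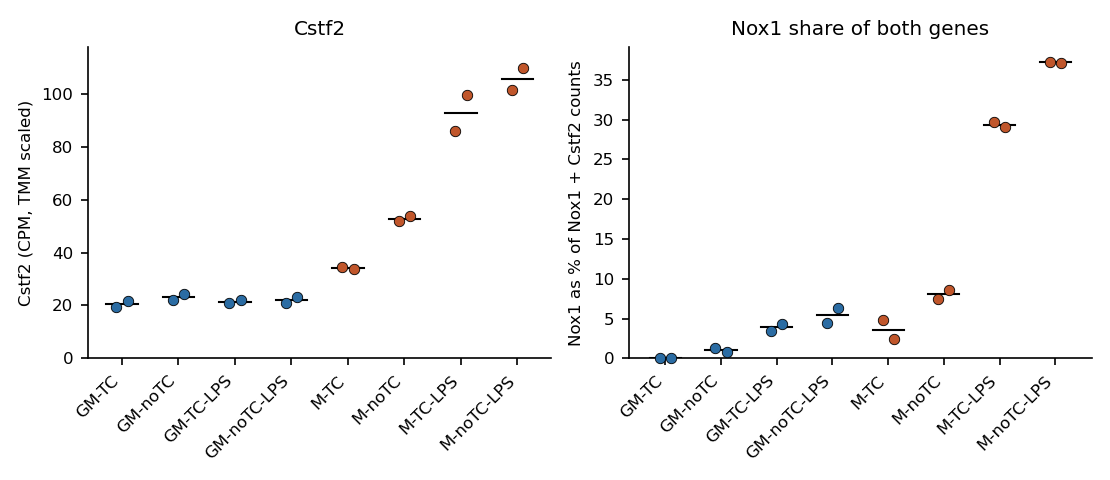
Left, Cstf2 in each library as TMM scaled CPM. Right, Nox1 as a percentage of the summed Nox1 and Cstf2 counts, where points are libraries and lines are means. The share runs from 0% in GM-TC to 37.2% in M-noTC-LPS.

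The partners that NOX1 uses in other tissues were scarce. Noxo1, its organizer subunit, had at most 23 counts in any library and group means of 0.163 to 0.683 CPM, and Noxa1, its activator subunit, had at most 4 counts. Of the other catalytic subunits, Nox3 had 0 counts, Nox4 and Duox1 at most 1 and Duox2 at most 3, and the DUOX maturation factors Duoxa1 and Duoxa2 had at most 2 and 3. Among these 8 genes only Noxo1 passed the expression filter. It was lower in GM than in M on TC dishes at steady state by -1.72 ± 0.64 (adjusted p = 0.0247 from edgeR), and adjusted p lay between 0.0706 and 0.990 in the other 11 comparisons. This call was lost without GM-TC replicate 2 or M-TC replicate 1 (adjusted p = 0.168 and 0.244) and in DESeq2 (adjusted p = 0.0904).

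Markers of tissues known for Nox1 were also measured, as CPM by library size and not by the TMM scaling of the Nox1 values. The 5 colon epithelium markers summed to 0 to 0.321 CPM, and Cdx2 was at 0 in all 8 groups. The 9 smooth muscle and fibroblast markers summed to 2.2 to 11.4 CPM at steady state and 19.6 to 36.7 CPM upon LPS, of which Pdgfrb made up 17.9 to 31.2 CPM upon LPS by group mean, and the highest group mean of Acta2 was 2.78 CPM. Myh11 and Cnn1, which mark contractile smooth muscle, had group means of 0.163 CPM or less. The 5 heart muscle markers, led by Myh6, summed to 20.4 to 44.0 CPM in GM-TC and 43.0 to 73.4 CPM in M-TC, and to at most 0.188 CPM elsewhere. The part of these cells in the Nox1 values was not tested.

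Cybb (ENSMUSG00000015340, chrX:9435252-9487771), the catalytic subunit of the phagocyte enzyme, was the most abundant member and was higher upon LPS in all 4 cultures under both scalings. In GM-TC it was at 2330 and 2149 CPM at steady state and at 3971 and 4095 CPM upon LPS. In GM-noTC it was at 2239 and 2249 CPM and at 3972 and 4154 CPM. The LPS and steady state values did not overlap in either GM culture. In M-TC it was at 1434 and 1387 CPM at steady state and at 3960 and 4091 CPM upon LPS. In M-noTC it was at 1044 and 1103 CPM and at 3155 and 3321 CPM. The fitted folds upon LPS were 1.8 and 1.81 in GM on TC and noTC dishes, against 2.85 and 3.02 in M.

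The growth factor difference in Cybb was therefore larger at steady state than upon LPS. On TC dishes the GM minus M difference was 0.67 ± 0.05 at steady state and 0.00 ± 0.05 upon LPS (log2 ± SE), where the groups overlapped. On noTC dishes the differences were 1.06 ± 0.05 and 0.33 ± 0.05, without overlap. With library size alone they were 0.36 and 0.04 on TC and 0.77 and 0.25 on noTC dishes. The dish went with Cybb in M only as a lower level on noTC, by -0.39 ± 0.05 at steady state and -0.31 ± 0.05 upon LPS, the opposite sign to Nox1. In GM the dish differences were 0.00 ± 0.05 and 0.01 ± 0.05 with overlapping groups.

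Cyba (ENSMUSG00000006519, chr8:122424776-122432930), whose p22phox stabilizes both NOX2 and NOX1, was higher in GM than in M in every setting. At steady state it was at 357 and 420 CPM in GM-TC, at 353 and 358 CPM in GM-noTC, at 190 and 198 CPM in M-TC and at 183 and 190 CPM in M-noTC. Upon LPS it was at 447 and 464 CPM, 414 and 424 CPM, 304 and 294 CPM, and 276 and 270 CPM in the same order of cultures. No GM value overlapped an M value of the same dish and treatment. The GM minus M difference was 1.0 ± 0.06 and 0.93 ± 0.06 at steady state on TC and noTC dishes, and 0.61 ± 0.06 and 0.62 ± 0.06 upon LPS. With library size alone these values were 0.69, 0.64, 0.64 and 0.55 in the same order.

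Ncf1 (ENSMUSG00000015950, chr5:134220053-134229625) encodes the organizer subunit p47phox. It was at 590 and 575 CPM in GM-TC, 565 and 580 CPM in GM-noTC, 489 and 492 CPM in M-TC and 414 and 427 CPM in M-noTC at steady state. Upon LPS it was at 643 and 645 CPM, 713 and 700 CPM, 678 and 710 CPM, and 664 and 702 CPM. The 4 cultures thus spread over a narrower range upon LPS. The GM minus M difference on TC dishes was 0.25 ± 0.05 at steady state, but -0.06 with library size alone, and -0.11 ± 0.05 upon LPS. Ncf1 shares 408 exon bases with Gtf2ird2 on the opposite strand, and in 5 of the 6 libraries where its count was not whole the sum of both was.

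Ncf4 (ENSMUSG00000071715, chr15:78244801-78262580), the p40phox subunit that binds phosphatidylinositol 3-phosphate on phagosomes, was the phagocyte member that was lower in GM than in M in every setting with TMM. It was at 40.5 and 44.6 CPM in GM-TC, 42.6 and 45.1 CPM in GM-noTC, 59.4 and 61.8 CPM in M-TC and 58.9 and 60.4 CPM in M-noTC at steady state. Upon LPS it was at 50.04 and 54.6 CPM, 56.7 and 55.0 CPM, 108 and 103 CPM, and 90.0 and 98.1 CPM. The GM libraries lay below the M libraries of the same treatment without overlap. The GM minus M difference was -0.51 ± 0.07 and -0.44 ± 0.07 at steady state and -1.01 ± 0.07 and -0.75 ± 0.07 upon LPS, on TC and noTC dishes.

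Rac2 (ENSMUSG00000033220, chr15:78559167-78572783), the RAC form typical of blood cells, differed little between the cultures at steady state. It was at 318 and 345 CPM in GM-TC, 341 and 337 CPM in GM-noTC, 335 and 320 CPM in M-TC and 318 and 331 CPM in M-noTC. Upon LPS it was at 351 and 355 CPM, 370 and 383 CPM, 535 and 487 CPM, and 418 and 421 CPM. The M libraries were above the GM libraries upon LPS, with the M-TC libraries highest. The GM minus M difference upon LPS was -0.53 ± 0.05 on TC and -0.16 ± 0.05 on noTC dishes. At steady state it was 0.02 ± 0.05 and 0.06 ± 0.05, but -0.30 and -0.23 with library size alone. By that scaling Rac2, like Ncf4, was lower in GM than in M in every setting.

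**Figure D3:**
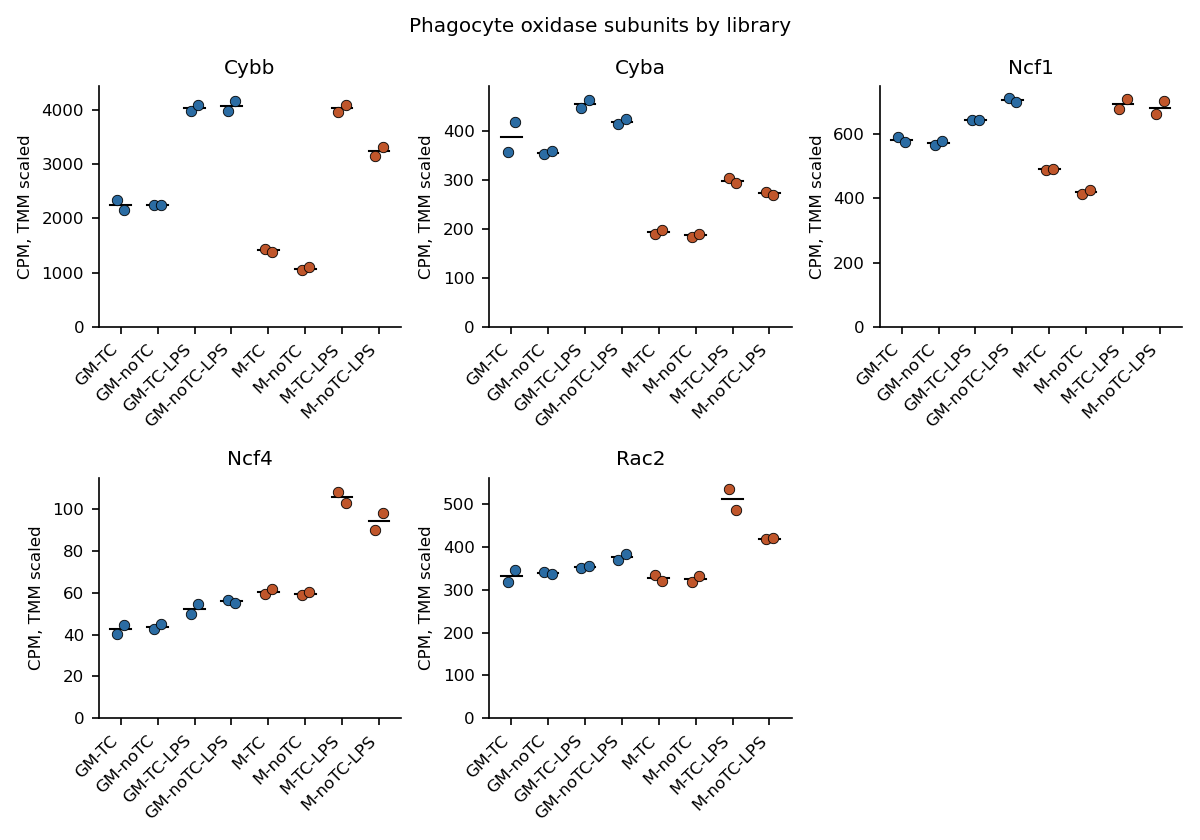
The 5 phagocyte members in each library as TMM scaled CPM (vertical axes start at 0 and differ between panels), with points for libraries, lines for means, blue for GM and orange for M. Cybb in M-TC moves from 1434 and 1387 CPM to 3960 and 4091 CPM with LPS.

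Some marker transcripts of other cell types differed by growth factor, in CPM by library size. The 12 neutrophil markers summed to 546 to 1052 CPM in GM and 54.0 to 95.3 CPM in M. By group mean, Mmp8 supplied 527 to 1018 CPM in GM, and Csf3r was higher in M, at 36.3 to 79.9 CPM against 3.25 to 5.39 CPM in GM, while Ly6g was at most 0.104 CPM and was at 0 in the 4 M groups together with Mpo, Elane and Retnlg. The 6 dendritic cell markers, led by Ccr7 and Clec9a, summed to 51.1 to 66.9 CPM in GM and 1.16 to 3.63 CPM in M. The 3 eosinophil markers summed to 42.0 to 89.2 CPM in GM and 1.08 to 4.11 CPM in M, nearly all Siglecf, while Epx and Prg2 had group means of at most 0.147 CPM. The 3 lymphocyte markers summed to at most 0.666 CPM, with Cd3e at 0 in all 8 groups. The part of any such cells in the growth factor differences was not tested.

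The sign of the modest differences upon LPS depended on the scaling. With TMM, all 6 members were higher upon LPS in the 4 cultures. With library size alone only Nox1 and Cybb were, and the other 4 were lower by mean. By that scaling the groups overlapped for Ncf1 in M-noTC and Ncf4 in M-TC. Cyba differed by 0.23 and 0.24 in GM and by 0.62 and 0.55 in M with TMM, but by -0.25, -0.27, -0.20 and -0.18 with library size. Ncf1 differed by 0.15, 0.30, 0.50 and 0.70, but by -0.34, -0.21, -0.33 and -0.03. Ncf4 differed by 0.30, 0.35, 0.80 and 0.66, but by -0.18, -0.16, -0.03 and -0.07. Rac2 differed by 0.09, 0.15, 0.64 and 0.37, but by -0.39, -0.36, -0.18 and -0.36 (log2, with TMM standard errors of 0.05 to 0.07 for these genes). All of these lay above the library size median of all genes, which was -0.53 and -0.54 in GM (TC, then noTC dishes) and -0.83 and -0.73 in M.

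**Figure D4:**
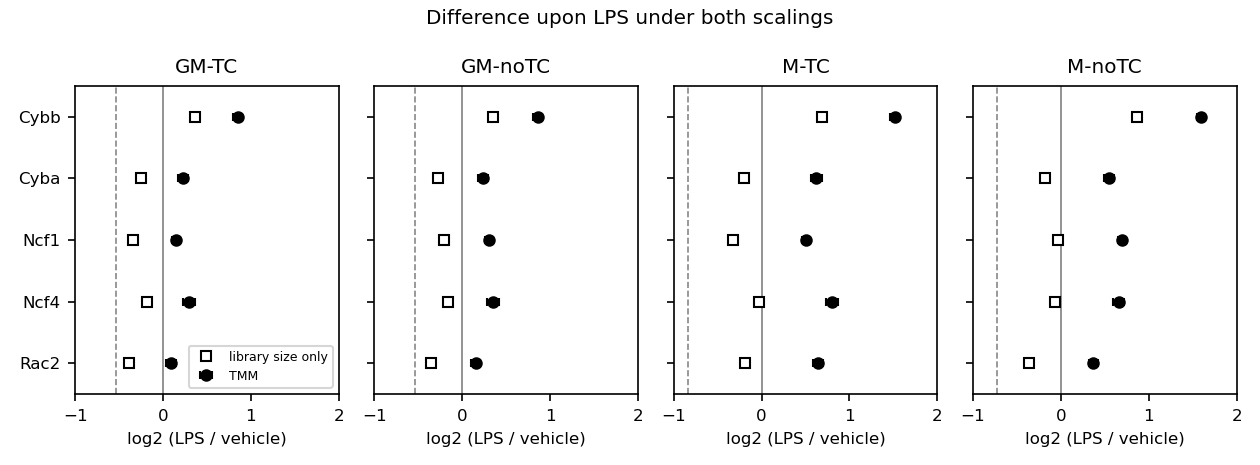
Log2 difference upon LPS (horizontal axis) of the 5 phagocyte members in each culture, with TMM scaling (filled circles with SE) and with library size alone (open squares). The dashed line is the median of all genes with library size alone, at -0.83 in M-TC. Cybb lies right of 0 with both scalings and Cyba, Ncf1, Ncf4 and Rac2 change sides.

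Per kilobase of exon, Nox1 was a small fraction of Cybb in every group. Its level per kilobase was 0.157% ± 0.0749 of the Cybb level in M-TC, 1.68% ± 0.0942 in M-TC-LPS, 0.752% ± 0.0770 in M-noTC and 3.39% ± 0.0513 in M-noTC-LPS (SD, n = 2). In GM it was at most 0.0548% ± 0.0153, in GM-noTC-LPS. On the same scale of library size CPM per kilobase, the order in each group was Cybb, Cyba, Ncf1, Rac2, Ncf4 and Nox1. The first pair did not separate in GM-TC, at 432 ± 30.4 for Cybb and 418 ± 41.6 for Cyba, or in M-noTC, at 255 ± 7.57 and 247 ± 4.16, and Cyba came first in GM-TC, GM-noTC and M-noTC when the longest transcript was used as the length. The ratio of Cybb to Cyba per kilobase was 1.04 ± 0.176 in GM-TC and 1.58 ± 0.00615 in GM-TC-LPS. In M-TC it was 1.3 ± 0.0691 and in M-TC-LPS 2.41 ± 0.116, so the catalytic subunit was higher relative to its membrane partner upon LPS.

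Further components of the phagocyte complex were tested, since they are not members. Cybc1 (ENSMUSG00000039294), the chaperone that helps assemble NOX2 with p22phox, fell upon LPS in all 4 cultures. The differences were -0.79 ± 0.07 and -0.91 ± 0.07 in GM on TC and noTC dishes, and -0.60 ± 0.07 and -0.75 ± 0.07 in M, with adjusted p from 3.79e-10 to 2.26e-07. Its mean was 47.4 to 55.4 CPM at steady state and 27.2 to 33.2 CPM upon LPS. Rac1 (ENSMUSG00000001847), the widely expressed RAC form, rose upon LPS by 0.15 and 0.16 on noTC dishes in GM and M (adjusted p = 0.00812 and 0.00468), whereas with library size alone these differences were -0.36 and -0.56. Without GM-noTC-LPS replicate 2 the call in GM was lost (adjusted p = 0.0558). On TC dishes the differences were 0.09 and 0.10 (adjusted p = 0.104 and 0.0694), and the response on noTC minus that on TC dishes was 0.06 ± 0.07 in both GM and M (adjusted p = 0.856 and 0.648). Rac1 is uncertain, since it shares 2309 exon bases with Daglb on the opposite strand and in 15 of the 15 libraries where its count was not whole the sum of both was.

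Across the 39 tested pathway genes, more rose than fell upon LPS with TMM. In GM-TC 19 rose and 9 fell, where 32.8% and 34.2% of all 12514 genes tested did, and in GM-noTC 22 rose and 8 fell, against 33.6% and 34.0%. In M-TC 23 rose and 8 fell, against 37.6% and 36.4%, and in M-noTC 24 rose and 10 fell, against 36.4% and 35.9%. The median log2 difference of the list was 0.21, 0.22, 0.44 and 0.30, where the median of all genes lay between -0.05 and -0.01. With library size alone the list held 10, 10, 13 and 11 higher calls and 21, 23, 21 and 25 lower calls, and of all genes 16.1% to 17.2% were then higher and 62.7% to 69.1% lower. Genes called at an edgeR adjusted p under 0.05 are counted here, and no test of the list as a whole was made.

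The transcription factors known to act on phagocyte oxidase genes all rose upon LPS with TMM, 7 of 7 in each culture, whereas with library size alone 5 rose and 1 fell in GM-TC, GM-noTC and M-noTC and 6 rose in M-TC. Irf1, an interferon regulatory factor, rose by 4.52 and 4.4 in GM (on TC, then noTC dishes) and by 3.93 and 4.18 in M (SE 0.05 to 0.06, adjusted p from 1.58e-24 to 3.72e-24). Irf8, which drives myeloid genes, rose by 0.61, 0.83, 1.38 and 2.05. Irf8 thus moved more in M, with a difference between the GM and M responses of -0.77 on TC dishes (adjusted p = 8.14e-08). Spi1, which encodes PU.1, had group means of 165 to 182 CPM at steady state, 211 and 212 CPM in GM with LPS, and 453 and 359 CPM in M-TC and M-noTC with LPS. By library size alone Spi1 was called lower upon LPS in both GM cultures. Irf1 and Irf8 kept their sign with library size alone in all 4 cultures.

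Among the 10 genes for superoxide and peroxide handling, 4 rose and 1 fell upon LPS in GM-TC, 6 rose and 0 fell in GM-noTC, and 5 rose and 2 fell in each M culture. Of all genes, 32.8% to 37.6% rose and 34.0% to 36.4% fell in the 4 cultures. With library size alone 3 or 4 of the handling genes rose and 5 or 6 fell in each culture. Sod2, the mitochondrial superoxide dismutase, rose by 3.01, 3.17, 3.50 and 3.59 (adjusted p from 4.98e-23 to 1.02e-21), from group means of 98.3 to 138 CPM to 852 to 1561 CPM. Prdx5, a peroxiredoxin, rose by 1.52, 1.48, 2.54 and 2.28. The 16 activators and regulators of assembly moved both ways, with 7 higher and 6 lower in each GM culture and 10 higher and 5 or 6 lower in M, whereas with library size alone 1 to 4 were higher and 10 to 13 lower. Pik3r5, a regulatory subunit of PI3K gamma, rose by 1.58, 1.75, 2.54 and 2.09. Arhgap25, a RAC GTPase-activating protein, fell by 1.8, 1.97, 1.14 and 1.58, and Vav2, an exchange factor for RAC, fell by 1.94, 1.73, 0.57 and 0.62 (adjusted p at most 9.51e-06 for these genes).

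Between the growth factors, more pathway genes were lower than higher in GM. At steady state 14 were higher and 19 lower in GM on TC dishes, against 32.6% and 28.9% of all genes, and 13 and 16 on noTC dishes, against 31.4% and 30.7%. Upon LPS the counts were 11 and 22 on TC dishes, against 33.9% and 32.9%, and 13 and 19 on noTC dishes, against 33.5% and 32.6%. With library size alone the steady state counts were 13 and 24 on both dishes, where 19.6% and 19.7% of all genes were higher and 50.8% and 52.1% lower. Hvcn1, the proton channel that balances the charge moved by NOX2, was higher in GM by 2.15 ± 0.05, 2.2 ± 0.05, 2.31 ± 0.05 and 2.54 ± 0.06 on TC and noTC dishes at steady state and then upon LPS (adjusted p from 3.85e-20 to 3.91e-19). Cebpb, which encodes C/EBP beta, was higher in GM by 2.06, 2.05, 0.91 and 1.84.

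Several exchange factors that load RAC with GTP were lower in GM in all 4 settings. Vav3 differed by -1.08, -1.04, -1.91 and -1.58, Vav1 by -0.61, -0.61, -1.51 and -1.18, Prex1 by -0.75, -0.38, -1.47 and -1.01 and Tiam1 by -0.38, -0.42, -2.17 and -1.79 (adjusted p at most 0.00201). Without GM-TC replicate 2, Tiam1 on TC dishes at steady state was at -0.24 with an adjusted p of 0.0634. Vav2 went the other way at steady state, by 1.44 and 1.53, and by 0.07 (adjusted p = 0.575) and 0.42 upon LPS. Sod1, the cytosolic superoxide dismutase, was lower in GM by -1.28, -1.28, -1.41 and -1.31.

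Fewer pathway genes differed by dish in GM than in M, as was the case among all genes. The steady state TC libraries also held the heart muscle markers given above. The part of such cells in these differences was not tested. In GM at steady state 2 were higher and 3 lower on noTC than on TC dishes, where 4.69% and 2.85% of all genes were, and this total of 5 became 10 and 8 without GM-TC replicate 1 or 2 and 2 without either GM-noTC replicate. The counts by library size alone were 4 higher and 3 lower. In GM upon LPS 3 were higher and 0 lower, against 2.08% and 0.727%, and the total was 0 without GM-TC-LPS replicate 1 and 1 without GM-TC-LPS replicate 2 or GM-noTC-LPS replicate 2. In M at steady state 5 were higher and 9 lower, against 16.1% and 11.1%. In M upon LPS 2 were higher and 18 lower, against 10.4% and 12.9%, and with library size alone 4 were higher and 13 lower, against 16.8% and 7.03%. The median of the list in this last comparison was -0.20, where that of all genes was 0.00.

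In M upon LPS, Cebpb was lower on noTC dishes by -0.91 ± 0.07 (adjusted p = 1.92e-09), against 0.14 ± 0.07 at steady state (adjusted p = 0.146). Prdx5 was lower by -0.52, Pik3r5 by -0.44, Sod2 by -0.31 and Cat, the catalase gene, by -0.52 (adjusted p at most 9.58e-05). Gpx1, a glutathione peroxidase, was higher by 0.42 (adjusted p = 7.68e-06) and was also higher at steady state in M by 0.46. Pla2g4a, the cytosolic phospholipase A2 that releases arachidonic acid, was higher on noTC dishes in M at steady state by 0.68 ± 0.07 and lower upon LPS by -0.24 ± 0.07 (adjusted p = 3.99e-07 and 0.0179), and the second call was lost with library size alone (adjusted p = 0.118) and without M-TC-LPS replicate 2 or M-noTC-LPS replicate 1 (adjusted p = 0.190 and 0.240). Tiam1 was higher on noTC dishes at steady state in GM and M by 0.55 and 0.59 (adjusted p = 0.000695 and 2.39e-05), and its difference of 0.48 in GM upon LPS (adjusted p = 0.0388) passed in none of the fits that left out 1 of those 4 libraries.

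**Figure D5:**
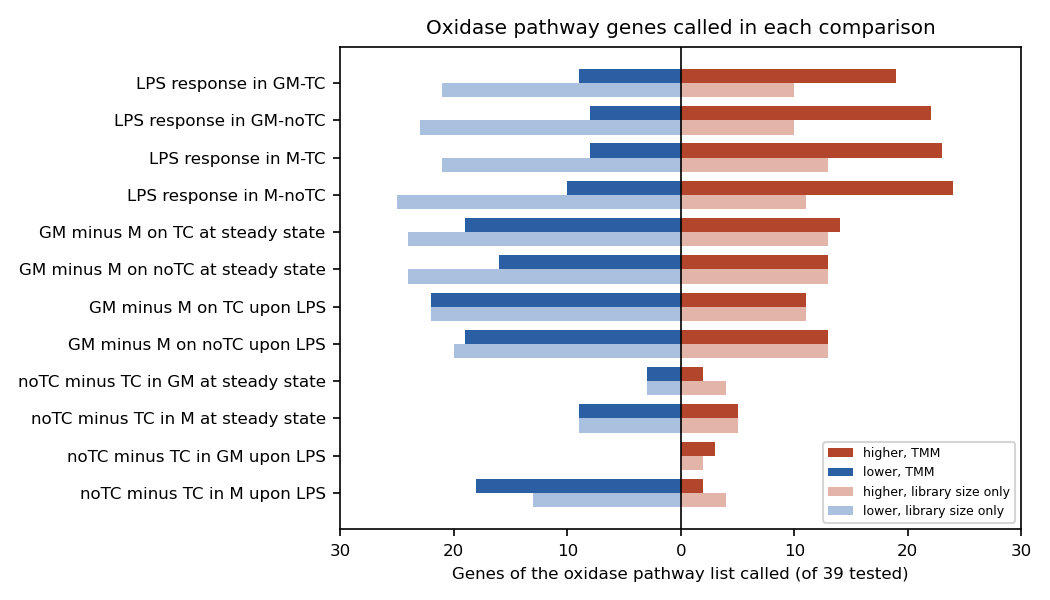
Number of the 39 tested oxidase pathway genes called at an edgeR adjusted p under 0.05 in each comparison, higher to the right and lower to the left, with TMM (dark) and with library size alone (light). In GM-TC upon LPS 19 were higher and 9 lower with TMM, and 10 and 21 with library size.

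The test of the difference between LPS responses called 24 pathway genes between GM and M on TC dishes. Of all genes, 41.1% were called in either direction. The GM minus M value was positive for 2 of the pathway genes and negative for 22. Negative values took in genes that fell more in GM, such as Vav2 and Arhgap25. On noTC dishes the test called 5 positive and 19 negative, against 36.2%. With library size alone these splits were 10 and 13, and 11 and 12. Of all genes, 39.1% and 29.99% were then called with a positive value and 10.4% and 10.97% with a negative one. Between dishes the test called 0 pathway genes in GM by edgeR and by DESeq2, where edgeR called 0.783% of all genes. In edgeR 4 pathway genes were at an unadjusted p under 0.05. The share of all genes at that limit is not given here. In M the test called 13 pathway genes, against 10.6%. The noTC minus TC value was positive for 2 of these and negative for 11. The M total of 13 was 8 with library size alone, split into 2 and 6, and it was 6 without M-noTC-LPS replicate 1, 7 without M-TC replicate 2 and 8 without M-noTC replicate 2. For the members, the difference of LPS responses between GM and M on TC dishes was -0.66 ± 0.07 for Cybb, -0.39 ± 0.08 for Cyba, -0.36 ± 0.07 for Ncf1, -0.50 ± 0.10 for Ncf4 and -0.55 ± 0.08 for Rac2 (log2 ± SE), and -0.32, -0.05, -0.01, -0.16 and -0.21 with library size alone.

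Likeness to the members was measured as Pearson's r of log2 TMM CPM over the 16 libraries, among 11715 tested genes at 1 CPM or more in a group. These libraries share 8 groups and a common scaling, so the values are a description. For Nox1 the most alike were Tcof1 (r = 0.991, Spearman's correlation = 0.961), Slc4a2 (0.985, 0.935), Bicd2 (0.982, 0.937), Psip1 (0.981, 0.955) and Slc28a2 (0.979, 0.914). Tcof1, which encodes the nucleolar protein treacle, ran from a mean of 33.1 CPM in GM-TC to 156 CPM in M-noTC-LPS. Slc28a2, a nucleoside transporter, ran from 1.90 CPM in GM-TC to 193 CPM in M-TC-LPS. Cstf2 had an r of 0.933 and ranked 197. By Spearman's correlation the most alike gene was Vegfc, at 0.977.

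The genes most like the other members differed from member to member. For Cybb they were Rffl, Tgm2 and Bcl2a1b (r = 0.995, 0.993 and 0.993). For Cyba they were mt-Co3, Ubb and Cox8a (0.992, 0.991 and 0.990), of which mt-Co3 and Cox8a encode subunits of cytochrome c oxidase. For Ncf1 they were Tle3, Gprc5c and Fmnl2 (0.981, 0.977 and 0.976), and for Ncf4 Nab1, Hnrnpm and Cap1 (0.991, 0.988 and 0.987). For Rac2 they were Spi1, Otub1 and Sbno2 (0.970, 0.965 and 0.964).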

How the data were processed

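RNA-seq of 16 BMDM libraries was analysed. The deposited table held expected counts per gene, which the authors estimated with RSEM without normalization. The submitters' processing notes name fastp 0.18.0, Bowtie2 2.2.8, HISAT2, StringTie 1.3.1, RSEM, DESeq2 and edgeR. The genome build and annotation behind the counts are not given in the sources used here, nor is whether strand was used in counting.

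Expected counts were rounded to whole numbers. Of 16756 genes with a count, 12514 passed filterByExpr by group and were tested with edgeR 4.0.16 in R 4.3.3 (TMM, quasi-likelihood test, 8 group means, Benjamini-Hochberg adjustment over all genes tested, calls at an adjusted p under 0.05). The common dispersion gave a biological coefficient of variation of 4.75%. TMM factors lay between 0.778 and 1.39. Log2 CPM used a prior count of 2, and the floor was 3 counts per library. Alternatives were DESeq2 1.42.0, DESeq2 size factors, library size alone, no filter, only the libraries of a comparison, a fold limit, a replicate block, subtraction of a share of the other libraries and leaving out each library. Scripts were tested on simulated data. Gene lengths (22253 genes) and exon overlaps came from GENCODE vM21 (GRCm38) and promoters from RefSeq (GRCm38.p6).

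The members and lists were chosen with earlier results of these data known. Pathway genes were named, up to 8 for each of LPS, growth factor and dish, by the largest absolute log2 difference among called genes at 1 CPM or more whose groups did not overlap. Rac1 and Cybc1 were named in addition. Some genes that this rule names are not reported here, though the counts of the list include them. By likeness, the 5 genes most like Nox1 and the 3 most like each other member were named. Noxo1, the genes below the filter, Cstf2 and Vegfc were named after their values were seen.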

Additional observations from a re-analysis of the deposited data

Results flagged for a closer look

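The LPS responses of the pathway genes named for LPS differed between cultures by the edgeR test of the difference itself. On TC dishes the GM response minus the M response, on the log2 scale, was 0.60 ± 0.08 (SE) for Irf1 (adjusted p = 1.13e-06). It was -0.48 for Sod2, -0.96 for Pik3r5, -1.02 for Prdx5, -0.77 for Irf8, -0.66 for Arhgap25 and -1.38 for Vav2 (adjusted p from 6.7e-10 to 1.77e-05). On noTC dishes it was 0.22 for Irf1 (adjusted p = 0.0239). There it was -0.42 for Sod2, -0.35 for Pik3r5, -0.80 for Prdx5, -1.21 for Irf8, -0.39 for Arhgap25 and -1.10 for Vav2 (adjusted p from 6.66e-11 to 0.00156). With library size alone the calls were lost for Sod2 (TC dishes, adjusted p = 0.106) and for Pik3r5 and Arhgap25 (noTC dishes, adjusted p = 0.193 and 0.140). The Irf1 call on noTC dishes was lost without GM-noTC replicate 2, GM-noTC-LPS replicate 1, M-noTC-LPS replicate 1 or either M-noTC replicate (adjusted p = 0.0559 to 0.162).

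In M-BMDMs the LPS response on noTC minus that on TC dishes was 0.25 for Irf1 and 0.66 for Irf8 (adjusted p = 0.0231 and 6.64e-06). It was -0.45 for Pik3r5 and -0.43 for Arhgap25 (adjusted p = 0.000278 and 0.00434). The Irf1 call was lost in 6 of the 8 fits that left out 1 M library, all but those without M-TC replicate 1 or M-TC-LPS replicate 1 (adjusted p = 0.0516 to 0.118).

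For 3 members every library of a group lay on the opposite side in a pair of comparisons, and these differences were not tested. The GM minus M difference of Ncf1 on TC dishes was 0.36 higher at steady state than upon LPS, and that of Rac2 on noTC dishes was 0.22 higher (log2). The noTC minus TC difference upon LPS was 0.26 higher in GM than in M for Ncf4 and 0.38 higher for Rac2. By library size alone the Ncf1 difference and the first Rac2 difference had the same sign in both settings, and the Ncf4 groups overlapped, whereas the Rac2 dish difference remained opposite without overlap.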

How the results depend on the processing

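With library size alone the balance of pathway genes called upon LPS turned from mostly higher to mostly lower in all 4 cultures, and 4, 8, 6 and 11 genes called by both scalings had opposite signs (GM-TC, GM-noTC, then M-TC, M-noTC). Requiring a fold change above 2 as well left 9, 9, 13 and 12 pathway genes upon LPS in the same order. Between growth factors it left 10, 9, 14 and 11 (TC and noTC at steady state, then upon LPS), and 0 in each of the 4 dish comparisons. For the differences of LPS responses it left 5, 4 and 1 between GM and M on TC, on noTC and between dishes in M. The shares of all genes at this limit, or with opposite signs, are not given here, so these counts describe the list only. The dish count in GM at steady state, 5, was 8 with no filter and 1 with only the libraries of the comparison, and 2 to 10 with 1 library left out. With 1 library left out, the dish count in GM upon LPS was 0 to 2, the difference between dishes in GM 0 to 2 (2 without GM-TC replicate 1) and that in M 6 to 11. The difference between dishes in M was 8 with library size alone. The genes called upon LPS with opposite signs by both scalings took in Spi1 in GM and Hvcn1 in M. They also took in Rac1, which turned from higher to lower on noTC dishes with library size alone, at -0.36 in GM and -0.56 in M. The cause of these changes was not tested. Same-numbered libraries did not deviate together over all genes (correlations -0.06 to 0.02). Whether they shared a mouse or a preparation cannot be told from this. With a replicate block the counts upon LPS were 27, 30, 31 and 33 and the dish count in GM at steady state 4. The block ended the call of no gene named here. Counting Nox1 and Cstf2 as 1 locus and the shares of all genes by library size were chosen after seeing the data. With 2 libraries per group, small differences may have been missed. Some were called with TMM, such as Rac1 at 0.15 and 0.16 upon LPS on noTC dishes in GM and M. Those Rac1 calls had the opposite sign with library size alone, so they are no measure of what could be detected.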
